A study of Homo sapiens with 36 samples.

Results

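The response of HK-2 cells to 12 h of a compound that the labels call Di was measured on 3 arrays and set against 3 arrays of vehicle controls from the same time, 6 of the 36 arrays of the series. HK-2 is an established line of immortalized epithelial cells from the human proximal tubule, where most of the filtered water and solutes are reabsorbed. The labels spell out neither Di nor its dose. Cells were grown in a medium with EGF, hydrocortisone, insulin, transferrin and selenite and were treated close to confluency, and the controls received the vehicle. The same 12 h controls served another compound, called CdCl, which was given for the same time, and Di was also given for 48 h with its own 48 h controls, each as 3 biological replicates per the labels. Those arrays are used below where the Di effect at 12 h is set against another compound or a later time. The remaining arrays are of an exposure called Kbr, at a high and a low dose (hd and ld in the labels). It ran for 24 h and 48 h, each with its own controls. The Kbr arrays enter the main fit below but are not compared with Di.

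The labelled cell type was checked against its markers. All 13 epithelial keratin and junction genes of a marker list were measured. Of 31 proximal tubule markers on the array, 18 lay under 4 on the log2 scale, the level taken here as background, in both the Di and the control group. Among those were LRP2 and CUBN, the endocytic receptors megalin and cubilin, and the water channel AQP1, while SLC3A1, SLC4A4, CDH6, FXYD2 and PDZK1 were above it. Of 15 distal nephron markers on the array, 12 were under 4 in both groups, and SCNN1A, CDH1 and AQP3 were above that level. The leukocyte markers (7 on the array) and 8 of 9 endothelial markers were under 4 in both groups, and of 9 fibroblast markers DCN, LUM and COL1A1 were above it. The fibroblast markers summed, on a linear scale, to 5617 to 6202 with Di and 5362 to 5835 in control.

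The 6 arrays differed in more than the treatment. Beta-actin signal at its 3′ end exceeded that at its 5′ end, a gap that widens as RNA degrades, by 1.40 ± 0.16 log2 units with Di and 1.84 ± 0.14 in control (SD, n = 3 each), and the ranges, 1.22 to 1.504 with Di and 1.69 to 1.98 in control, did not overlap. An exact two-sided permutation test gave p = 0.1, the smallest that 3 arrays against 3 allow. The median over all genes was 7.99 to 8.15 with Di and 8.16 to 8.20 in control. Di replicate 2 had the lowest value of both measures among the 6 arrays, and its mean correlation with its own group was 0.986. Their part in the results below was not tested, except where a value is given with the beta-actin difference as a covariate or without that array.

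In the main fit, with a mean for each of 12 groups over all 36 arrays, few genes passed for Di at this time. Most of those that passed differed by less than 2-fold. Of 11092 genes tested, 695 passed at an adjusted p under 0.05 (6.27%), 185 higher (1.67%) and 510 lower (4.60%). Of them 59 differed by at least 2-fold, 18 higher and 41 lower. How few passed depended on the fit. With the CdCl and Di arrays alone 1446 passed, with a replicate block 1662 and with array weights 2394. At least 2-fold differences numbered 56, 69 and 59 in these fits. When just the Di and control groups were fitted 298 passed. The arrays of the Di group and the control group did not overlap in 32.4% of all genes, 1131 of them higher and 2468 lower. For a single gene, a share of 0.1 of the 20 splits of 6 arrays into 3 and 3 has no overlap. The median difference over all genes was -0.07 on the log2 scale. It was 0.02 after each array had been centred on its median, when 546 genes passed, 293 higher and 253 lower, so that the excess of lower genes depended on the scaling. After quantile normalization 236 were higher and 362 lower. Every difference below is Di minus vehicle at 12 h on the log2 scale, with the SE of the fit, unless another comparison is named. List counts of the main fit are to be read against the shares over all genes, 1.67% higher, 4.60% lower and 6.27% in either direction.

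**Figure D1:**
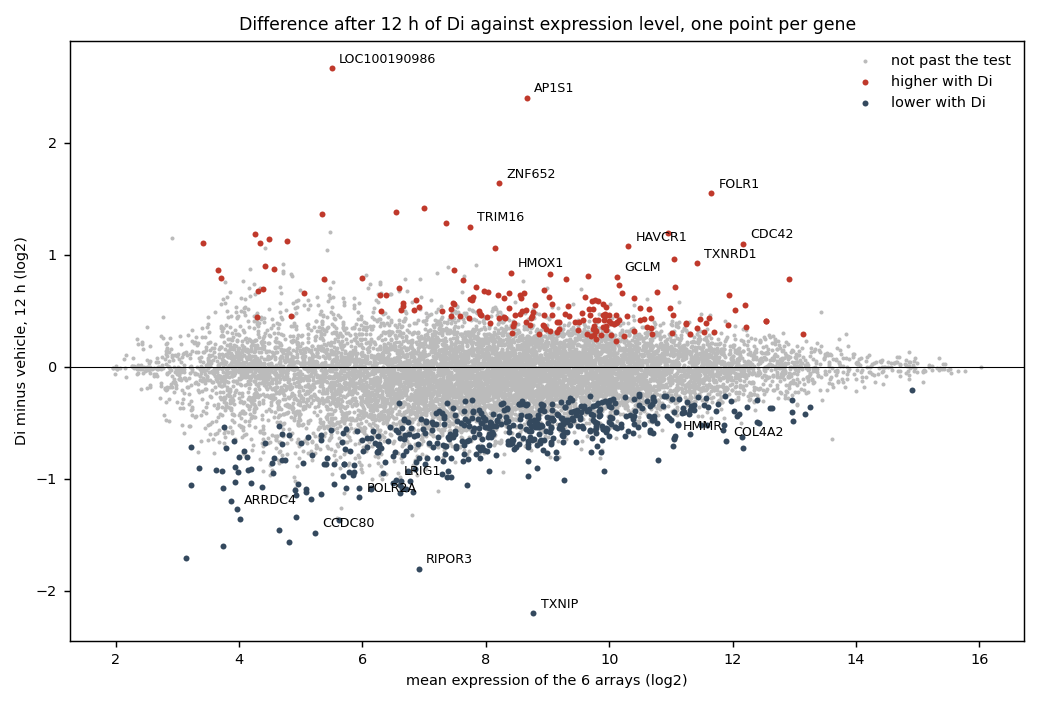
Difference between Di and vehicle at 12 h (log2, vertical axis) against the mean expression of the 6 arrays (log2, horizontal axis), one point per gene. Red points are the 185 genes that were higher with Di, dark points the 510 that were lower and grey points those that did not pass. TXNIP, at -2.20, is the lowest point and LOC100190986, at 2.67, the highest.

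Cells meet oxidants and electrophiles with thioredoxin and glutathione. NRF2, a transcription factor held down by KEAP1, turns on the genes that make and recycle both when its inhibitor is modified, by binding antioxidant response elements in their promoters. TXNIP binds thioredoxin and blocks it, and its transcription follows cellular glucose through the factor MondoA, which binds carbohydrate response elements, as does that of its relative ARRDC4. Both are alpha-arrestins, adaptors that remove glucose transporters from the cell surface.

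TXNIP had the largest fall among genes past the test. Its expression was 7.72, 7.73 and 7.55 in the 3 Di arrays, against 9.77, 10.02 and 9.83 in the 3 control arrays. Every Di array was below every control array, and the spread within each group was small next to that gap. The difference was -2.20 ± 0.43 (adjusted p = 0.00231), a 4.60-fold lower level. All 3 probe sets of TXNIP fell, with differences of -2.20 to -1.65. ARRDC4 had 3.23, 3.05 and 3.71 with Di, against 4.60, 4.69 and 4.53 in control. The groups did not overlap, but the Di arrays were at background, so the level was at least 1.52-fold lower (difference -1.27 ± 0.18, adjusted p = 0.000105). Among 9 measured genes of the list of alpha-arrestins and MondoA response these were the 2 that passed (22.2%, against 4.60% lower over all genes). The list's median was -0.16.

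To show where the glucose-response sequence lies, the 200 bases before the RefSeq start of both genes are printed (RefSeq, GRCh38.p14). Capitals mark a paired carbohydrate response element, CACGNG and again CACGNG after 5 bases, where one is present on either strand. TXNIP is on the minus strand at chr1:145996580-145996779 and ARRDC4 on the plus strand at chr15:97960503-97960702, in each case the region printed.
TXNIP: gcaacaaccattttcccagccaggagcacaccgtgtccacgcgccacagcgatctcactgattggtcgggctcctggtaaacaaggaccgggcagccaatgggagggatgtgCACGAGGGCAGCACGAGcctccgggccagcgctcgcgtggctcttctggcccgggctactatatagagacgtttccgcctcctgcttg
ARRDC4: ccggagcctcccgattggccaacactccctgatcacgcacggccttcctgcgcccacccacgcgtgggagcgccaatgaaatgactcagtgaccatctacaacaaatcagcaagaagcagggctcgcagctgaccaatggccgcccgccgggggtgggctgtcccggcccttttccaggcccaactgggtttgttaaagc
The TXNIP promoter held the pair, starting 88 bases before the start of the gene, and ARRDC4's window held none that matches these letters. Of 27305 promoters of 300 bases (250 before the start and 50 after it), 20 held it (0.0732%).

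Of 35 measured NRF2 targets 7 rose and 0 fell (4 rose without control replicate 3), and 28 did not pass. The 7 made up 20% of the list, against 1.67% higher over all genes. With the CdCl and Di arrays alone 9 rose and 0 fell, and with array weights 13 and 2. With a replicate block these were 7 and 1, and with the beta-actin covariate 5 and 1. The list's median was 0.14, against -0.07 over all genes. TXNRD1, the selenoenzyme that reduces thioredoxin, had 11.81, 11.95 and 11.89 with Di, against 10.91, 10.96 and 11.01 in control. The 2 groups were tight and lay well apart, and the rise was 0.92 ± 0.11 (adjusted p = 7.66e-06), or 1.89-fold. TRIM16, a ubiquitin ligase induced through NRF2, had 8.11, 8.65 and 8.33 with Di, against 7.05, 6.98 and 7.31 in control. It rose by 1.25 ± 0.14 (adjusted p = 7.66e-06), the largest difference of the list.

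GCLM is the modifier subunit of glutamate-cysteine ligase, which sets the rate of glutathione synthesis. Its expression was 10.60, 10.50 and 10.52 with Di, against 9.69, 9.72 and 9.79 in control. That made a rise of 0.80 ± 0.15 (adjusted p = 0.0022) with no overlap, seen by 2 of its 3 probe sets as past the test. The catalytic subunit GCLC showed none of this, at 8.61, 8.23 and 8.40 with Di, against 8.63, 8.46 and 8.49 in control (-0.11 ± 0.24, adjusted p = 0.843). SRXN1, the sulfiredoxin that repairs overoxidized peroxiredoxins, had 8.08, 8.36 and 8.14 with Di, against 7.53, 7.31 and 7.62 in control, and rose by 0.71 ± 0.16 (adjusted p = 0.00621).

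HMOX1, heme oxygenase-1, had 8.74, 8.94 and 8.78 with Di, against 8.10, 8.08 and 7.76 in control. All Di arrays were above all control arrays, and the third control array was the lowest. It rose by 0.84 ± 0.19 (adjusted p = 0.0091), a call lost without control replicate 3 and with the beta-actin covariate. The quinone reductase NQO1 rose by 0.46 ± 0.13 (adjusted p = 0.027), and so did each of its 3 probe sets. The carbonyl reductase CBR1 rose by 0.52 ± 0.13 (adjusted p = 0.0193). The cystine transporter SLC7A11, at 0.68 ± 0.43 (adjusted p = 0.373), did not pass, and its groups overlapped. In the list of the thioredoxin, peroxiredoxin and glutaredoxin system, 3 of 21 rose (TXNRD1, SRXN1 and GLRX3, the last by 0.39 ± 0.12) and TXNIP fell. Its shares were 14.3% higher and 4.76% lower, against 1.67% and 4.60% over all genes. The GLRX3 call was lost without any 1 of the arrays but control replicate 1. Of 8 measured superoxide and peroxide removing enzymes, 0 passed in limma (2 at an unadjusted p under 0.05), and the glutathione reductase GSR was at -0.33 ± 0.15 (adjusted p = 0.197). With the CdCl and Di arrays alone, array weights or a replicate block, 1 of the 8 fell.

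The 200 bases before the start of the 3 risen targets that hold an antioxidant response element core are shown, so that its place can be compared. Capitals mark TGACNNNGC on either strand. The regions are chr12:104215579-104215778 (plus strand) for TXNRD1, chr1:93909431-93909630 (minus strand) for GCLM and chr21:36069824-36070023 (plus strand) for CBR1, from RefSeq on GRCh38.p14.
TXNRD1: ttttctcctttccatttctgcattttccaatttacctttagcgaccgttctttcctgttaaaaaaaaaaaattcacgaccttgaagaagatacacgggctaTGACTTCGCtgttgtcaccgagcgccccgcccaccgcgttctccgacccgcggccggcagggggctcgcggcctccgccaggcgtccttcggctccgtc
GCLM: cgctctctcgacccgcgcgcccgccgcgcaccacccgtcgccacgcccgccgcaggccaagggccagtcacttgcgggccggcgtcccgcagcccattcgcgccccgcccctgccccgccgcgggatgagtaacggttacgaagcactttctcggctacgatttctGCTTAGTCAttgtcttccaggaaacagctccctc
CBR1: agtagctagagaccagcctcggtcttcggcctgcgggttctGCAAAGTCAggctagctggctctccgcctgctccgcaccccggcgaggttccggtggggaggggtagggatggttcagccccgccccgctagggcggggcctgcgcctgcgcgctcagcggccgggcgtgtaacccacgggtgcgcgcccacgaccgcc
The matches began 99, 34 and 159 bases before the start in TXNRD1, GCLM and CBR1, and a second one in TXNRD1, 8 bases before it, runs past the printed end. NQO1, SRXN1 and TRIM16 had no match in the 300-base window. The core was found in 13.6% of all promoters and in 8 of the 28 measured NRF2 targets that had a promoter in the table.

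**Figure D2:**
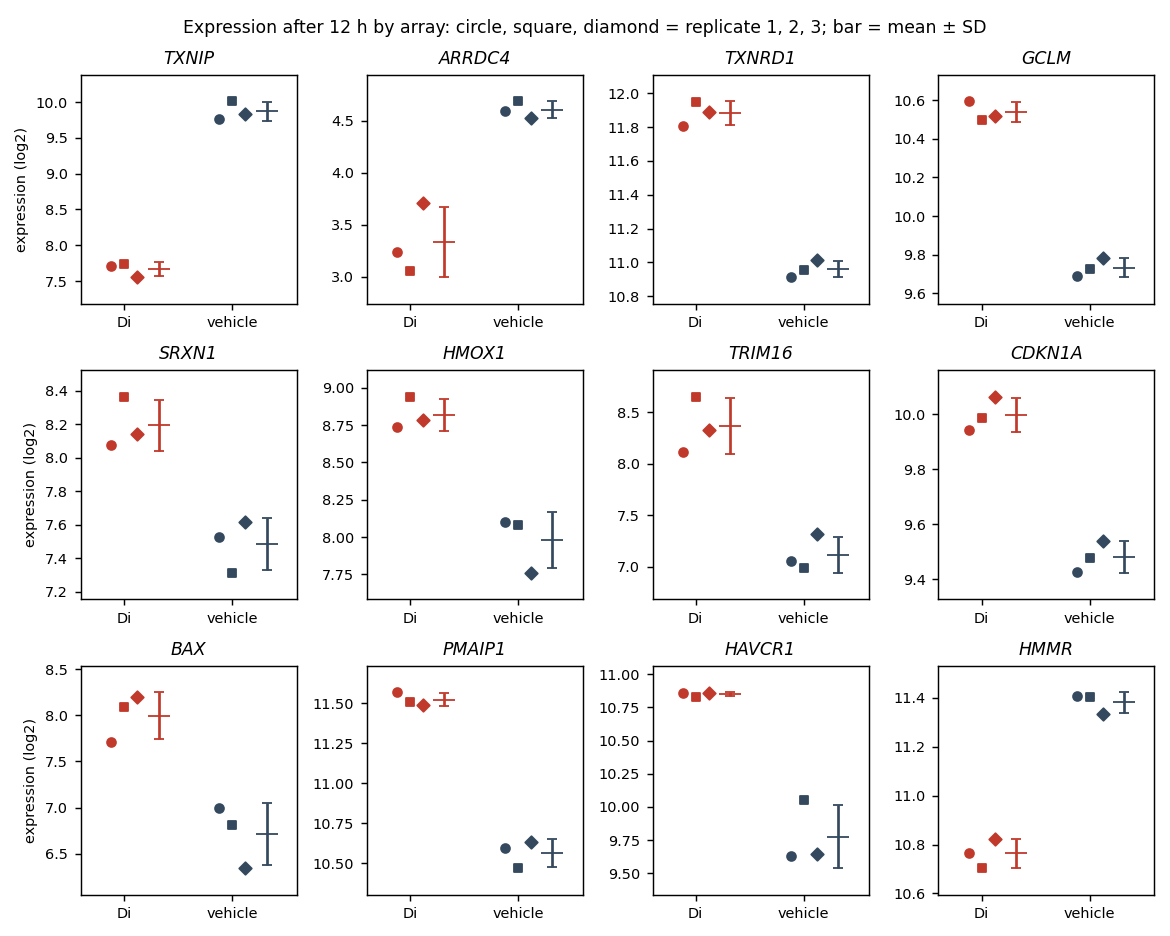
Expression (log2, vertical axis of each panel, each with its own range) of 12 genes in the 3 Di arrays (red, left) and the 3 vehicle arrays (dark, right) at 12 h. Symbols mark replicates 1, 2 and 3 and bars the mean ± SD. In no panel do the groups overlap.

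Few of the genes that answer to p53, which halts the cell cycle and starts apoptosis after damage, passed. Of 30 measured targets 4 rose and 1 fell, with a list median of -0.04. Those were 13.3% and 3.33% of the list, against 1.67% higher and 4.60% lower over all genes. BAX, which opens the outer mitochondrial membrane, had 7.71, 8.09 and 8.20 with Di, against 7.00, 6.81 and 6.34 in control, and rose by 1.28 ± 0.25 (adjusted p = 0.0022). Both of its probe sets passed. PMAIP1, or NOXA, a BH3-only activator of apoptosis, had 11.57, 11.51 and 11.49 with Di, against 10.60, 10.47 and 10.63 in control. That rise of 0.96 ± 0.20 (adjusted p = 0.00459) was also seen by both of its probe sets. CDKN1A, the cyclin-dependent kinase inhibitor p21, had 9.94, 9.99 and 10.06 with Di, against 9.42, 9.48 and 9.54 in control, tight groups that differed by 0.52 ± 0.10 (adjusted p = 0.00252).

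TRIAP1, an inhibitor of apoptosis, rose by 0.27 ± 0.08 (adjusted p = 0.0297). ACTA2, smooth muscle actin, was the member that fell, at -0.57 ± 0.17 (adjusted p = 0.0474), although its groups overlapped and the call was lost after both rescalings and without any 1 array but Di replicate 1. MDM2, the ubiquitin ligase that p53 induces against itself, was at -0.06 ± 0.16 (adjusted p = 0.882), with 9.19, 8.77 and 9.24 with Di, against 9.12, 9.09 and 9.16 in control. The stress cytokine GDF15 missed the threshold at 0.61 ± 0.19 (adjusted p = 0.0528), although its arrays, 10.88, 10.97 and 10.90 with Di, against 10.38, 10.25 and 10.30 in control, did not overlap. In the list of BCL2 family and death regulators BAX and PMAIP1 rose and the survival factor MCL1 fell, by 0.33 ± 0.10 (adjusted p = 0.034), out of 21. The list's shares were 9.52% higher and 4.76% lower, against 1.67% and 4.60% over all genes. Of the 5 MCL1 probe sets, 1 passed in the opposite direction.

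Among kidney injury markers, HAVCR1 was the only one of 18 to pass, or 5.56%, near the 6.27% over all genes. HAVCR1, or KIM-1, is a surface receptor that injured proximal tubule cells put out in large amounts. It had 10.86, 10.83 and 10.85 with Di, against 9.63, 10.05 and 9.64 in control. The Di arrays were almost identical, and every one was above the highest control array. The rise was 1.07 ± 0.16 (adjusted p = 0.000262), or 2.11-fold. LCN2, another injury marker, was at background in all 6 arrays. Of the 13 measured proximal tubule markers 0 passed in limma in the main fit, and 3 had an unadjusted p under 0.05. At the share over all genes, 6.27%, few calls would fall in a list of 13. With the CdCl and Di arrays alone 5 fell, with array weights or a replicate block 2 fell, and 0 rose in these fits. SLC3A1, a subunit of the cystine and dibasic amino acid transporter, was at -0.62 ± 0.26 (adjusted p = 0.159), and CLDN2, a pore-forming claudin, at -0.02 ± 0.23 (adjusted p = 0.974). The proximal tubule markers summed to 26454 to 31727 with Di and 31289 to 34244 in control on a linear scale. In these bulk samples fewer cells of a kind and less RNA per cell cannot be told apart.

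Of 45 measured genes of G2/M and mitosis, 8 fell and 0 rose, 37 did not pass, and the list's median was -0.26. The 8 made up 17.8% of the list, against 4.60% lower over all genes. The number that fell was 4 without Di replicate 3, control replicate 2 or control replicate 3, 6 without any other single array, and 3 when just the 2 groups were fitted. It was 9 with the beta-actin covariate, 11 with the CdCl and Di arrays alone, 13 with a replicate block and 19 with array weights. In these 0 rose. HMMR, a spindle protein, had 10.76, 10.70 and 10.82 with Di, against 11.41, 11.40 and 11.33 in control, a fall of 0.62 ± 0.12 (adjusted p = 0.00168) in both of its probe sets. The spindle pole protein ASPM fell by 0.64 ± 0.11 (adjusted p = 0.00108) and the proliferation marker MKI67 fell by 0.71 ± 0.17 (adjusted p = 0.0145). The others were the kinetochore protein CENPF, the condensin subunits NCAPG and SMC4, the checkpoint kinase BUB1B and the centrosome kinase NEK2, with differences of -0.60 to -0.39. After median centring 2 of the 8 calls remained (HMMR and ASPM), and the list's median was -0.17. Among the 40 measured replication and G1/S genes 1 fell, POLA1, the catalytic subunit of the primer-making polymerase (-0.45 ± 0.13, adjusted p = 0.0307), and 0 rose. That call was lost after both rescalings and without Di replicate 1 or 3 or control replicate 2 or 3, and 1 of 40 is a smaller share than the 4.60% lower over all genes.

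Many G2/M genes carry a cell cycle homology region, TTTGAA, close to the start, through which they are repressed outside G2 and mitosis. The HMMR promoter (chr5:163460432-163460631, plus strand, RefSeq on GRCh38.p14) is printed because it holds a tandem pair, marked by capitals.
HMMR: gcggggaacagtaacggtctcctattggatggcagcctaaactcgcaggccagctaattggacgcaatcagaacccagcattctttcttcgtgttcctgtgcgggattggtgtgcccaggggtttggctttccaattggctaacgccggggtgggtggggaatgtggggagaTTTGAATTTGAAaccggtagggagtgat
The pair starts 28 bases before the start of the gene. The 6 letters were found, on either strand, in the 300-base window of 7 of the 8 mitotic genes that fell, in 27 of the 38 measured members of the list with a promoter in the table, and in 15.4% of all promoters.

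Genes of the extracellular matrix and the TGF-beta response fell in 4 of 25 cases and rose in 0, with a median of -0.15. The share that fell was 16%, against 4.60% over all genes. The number that fell was 2 without Di replicate 1, Di replicate 3 or control replicate 3, and 1 (TNC) without control replicate 2. With the CdCl and Di arrays alone 5 fell and 2 rose, with array weights 6 and 1, and with the beta-actin covariate 7 and 0. The paired chains of basement membrane collagen were COL4A1, at 12.18, 12.09 and 12.21 with Di, against 12.66, 12.69 and 12.60 in control (-0.49 ± 0.12, adjusted p = 0.0117), and COL4A2 (-0.66 ± 0.18, adjusted p = 0.0266). Tenascin C, TNC, fell by 0.57 ± 0.12 (adjusted p = 0.00537) and fibronectin, FN1, fell by 0.21 ± 0.06 (adjusted p = 0.0342). FN1 lost its call after both rescalings, and 6 of its 7 probe sets did not pass. LRIG1, which targets EGF receptors for degradation, had 6.16, 5.66 and 6.30 with Di, against 6.98, 7.18 and 6.99 in control and fell by 1.01 ± 0.21 (adjusted p = 0.00326), the one of 10 genes of EGFR and its ligands to pass.

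Metabolic genes passed in small numbers. In fatty acid synthesis 2 of 9 fell, the acetyl-CoA producers ACLY (-0.30 ± 0.07, adjusted p = 0.0157) and ACSS2 (-0.48 ± 0.11, adjusted p = 0.00942), and all 9 differences were below 0. The share that fell was 22.2%, against 4.60% over all genes. Over all genes 6850 of 11092 differences were below 0. The ACLY call was lost after median centring and without Di replicate 2, control replicate 2 or control replicate 3. The glucose transporter SLC2A1 rose by 0.50 ± 0.13 (adjusted p = 0.0227), with 7.41, 7.62 and 7.57 with Di, against 7.22, 6.99 and 6.90 in control. In the same list of glycolysis and hypoxia response, of 31, the oxygen-sensing hydroxylase EGLN1 and the histone demethylase KDM3A fell, by 0.29 ± 0.09 and by 0.34 ± 0.10. Both of these calls were lost after both rescalings and without Di replicate 2 or any 1 control array, and that of SLC2A1 without Di replicate 2 or 3 or control replicate 2 or 3. The shares of this list were 3.23% higher and 6.45% lower, against 1.67% and 4.60% over all genes.

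Among 21 interferon-stimulated genes 3 rose and 1 fell (14.3% and 4.76%, against 1.67% and 4.60% over all genes). Only 1 rose without Di replicate 1, control replicate 2 or control replicate 3, and when just the 2 groups were fitted. IFIT3, an antiviral protein, rose by 0.55 ± 0.13 (adjusted p = 0.0095), the interferon-induced IFI6 by 0.50 ± 0.12 (adjusted p = 0.0123) and the signalling factor IRF9 by 0.51 ± 0.15 (adjusted p = 0.0406), while SAMD9 fell by 0.70 ± 0.15 (adjusted p = 0.00624). Of 19 genes of the heat shock response, the chaperone HSP90AB1 rose by 0.78 ± 0.19 (adjusted p = 0.0142) and the co-chaperone DNAJA1 by 0.41 ± 0.10 (adjusted p = 0.0162), and both calls were lost without control replicate 2. They made up 10.5% of the list, against 1.67% higher over all genes. DNAJB1, a co-chaperone strongly induced by protein damage, was at 0.42 ± 0.22 (adjusted p = 0.259). Of 28 genes of the amino acid response ATF4 itself rose (0.31 ± 0.09, adjusted p = 0.0381) and the lipoprotein receptor VLDLR fell (-0.47 ± 0.14, adjusted p = 0.0456), and both calls were lost without Di replicate 2 or any 1 control array. Each made up 3.57% of the list, against 1.67% higher and 4.60% lower over all genes. DDIT3, TRIB3 and ATF3, stress genes downstream of ATF4, did not pass, at 0.40 ± 0.58, 0.58 ± 0.22 and 0.81 ± 0.69.

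Several stress and housekeeping lists had no member past the test in the main fit. They were 11 metallothionein and zinc response genes, 21 endoplasmic reticulum chaperones and XBP1/ATF6 targets, 28 proteasome subunits, 30 immediate early genes, 32 genes of the respiratory chain, 18 of sterol synthesis and 23 cytokines and NF-kB targets. With 6.27% past the test over all genes, few calls would fall in lists of these sizes. In limma, an unadjusted p under 0.05 was reached by 11 of the proteasome subunits, 7 of the immediate early genes, 4 of the respiratory chain, 3 of sterol synthesis, 1 of the cytokines, and 0 of the metallothioneins and the endoplasmic reticulum list. With the CdCl and Di arrays alone, array weights and a replicate block, 8, 9 and 10 proteasome subunits rose and 1 fell in each. With the beta-actin covariate 0 rose and 2 fell. In the same first 3 fits 3, 7 and 2 immediate early genes rose and 0 fell, and 0 metallothionein and zinc response genes passed. The metallothioneins, which bind zinc and cadmium, lay within -0.17 and 0.09 of control. MT1X had 13.18, 13.62 and 13.19 with Di, against 13.24, 13.31 and 13.24 in control, overlapping groups that differed by 0.07 ± 0.14 (adjusted p = 0.840). Probe sets of this family can bind transcripts of its near-identical copies, so the member is uncertain. The proteasome subunits had the second highest median of the lists with 8 or more measured genes, 0.13. Of these, 13 of 28 were above control without overlap, against 1131 of 11092 over all genes. Their largest difference was PSMC1 at 0.41 ± 0.13 (adjusted p = 0.0632).

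**Figure D3:**
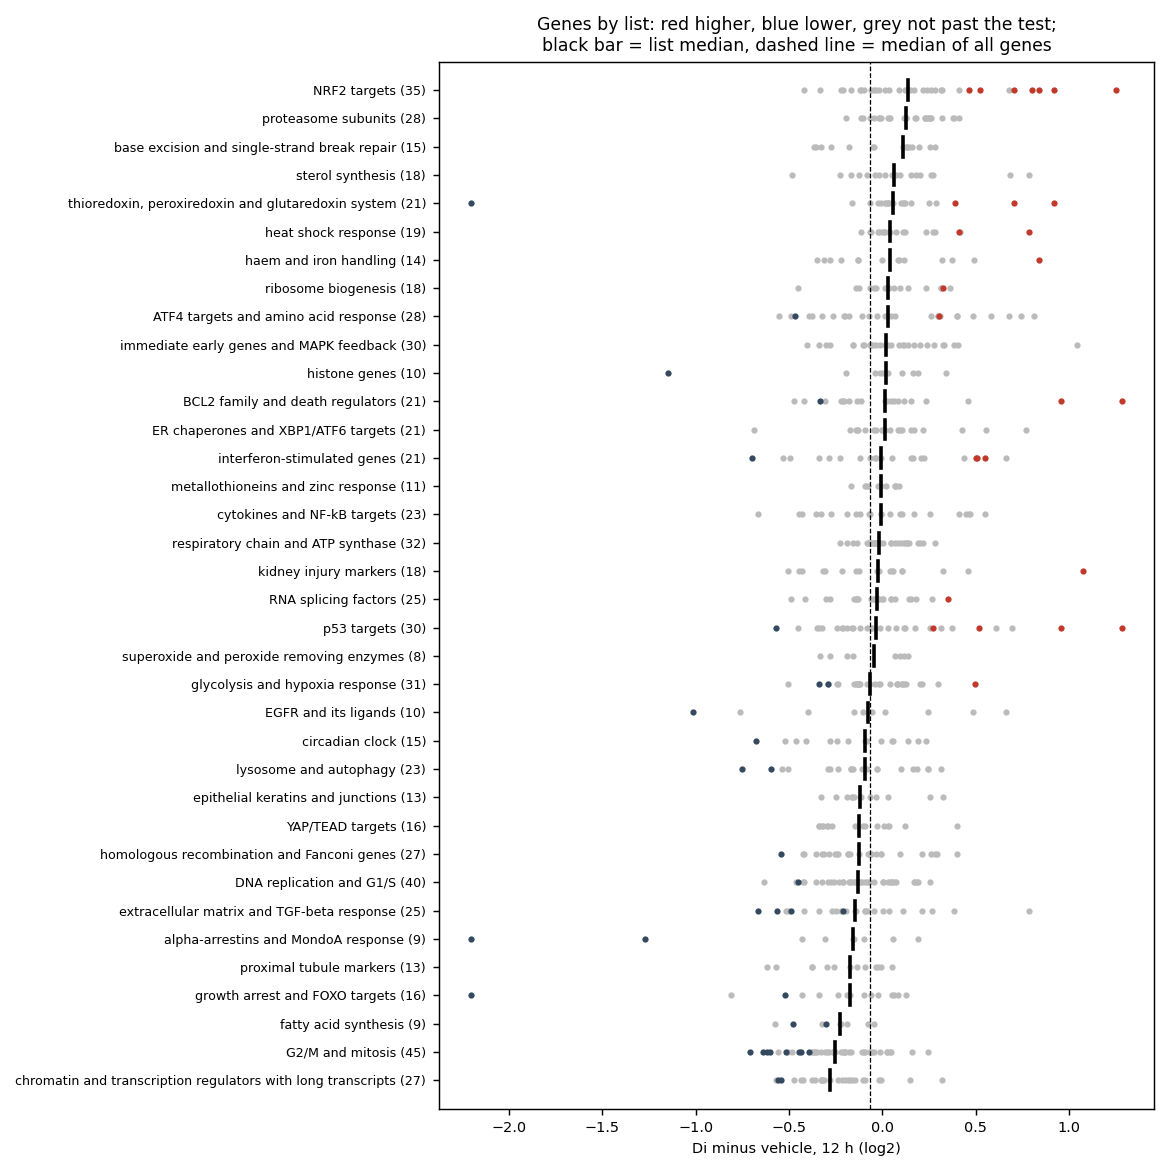
Differences between Di and vehicle at 12 h (log2, horizontal axis) of the genes of each list with at least 8 measured members, lists ordered by their median with the number measured in brackets. Red points rose, dark points fell and grey points did not pass. The black bar is the list's median and the dashed line the median of all genes, -0.07. NRF2 targets stand at the top with 7 risen members, and mitotic genes near the bottom with 8 fallen ones.

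Outside these lists the largest rises were those of LOC100190986, an uncharacterized locus (2.67 ± 0.41, adjusted p = 0.000336), and AP1S1, a subunit of the clathrin adaptor that sorts proteins at the Golgi. AP1S1 had 9.61, 10.23 and 9.76 with Di, against 8.03, 7.11 and 7.25 in control (2.40 ± 0.41, adjusted p = 0.000701), and all 3 of its probe sets rose. The Di arrays lay more than 1 log2 unit above the highest control array. FOLR1, the folate receptor of the proximal tubule, had 12.61, 12.52 and 12.16 with Di, against 10.67, 10.72 and 11.25 in control (1.55 ± 0.19, adjusted p = 1.84e-05), yet its other probe set was at -0.51 and did not pass. CDC42, a GTPase that organizes actin and polarity, had 12.67, 12.73 and 12.75 with Di, against 11.61, 11.66 and 11.59 in control (1.10 ± 0.13, adjusted p = 7.66e-06), with 2 of 3 probe sets past the test. The translation factor EIF5A rose by 1.19 ± 0.22 (adjusted p = 0.00124), as did the zinc finger gene ZNF652 (1.64 ± 0.20, adjusted p = 1.84e-05), by 1 of 3 and 1 of 4 probe sets. Of the 15 largest rises, 10 had several probe sets, and in 5 of these the probe sets lay on both sides of 0. Over all 695 genes past the test, 397 had several, and in 234 of them every probe set had the same sign.

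The 12 h control was the lowest of the 6 groups of the CdCl and Di arrays for 14 of those 15 rises, an end of the order that choosing rises over that control favours. It was lowest in 79 of the 185 genes that rose and in 9.83% of all genes. For ZNF652 the group means were 9.04 with Di at 12 h and 7.40 in its control, against 9.04 with Di and 9.57 in control at 48 h. AP1S1 averaged 9.87 with Di and 7.46 in control at 12 h, and 8.65 with Di and 9.13 in control at 48 h. BAX averaged 7.998 with Di and 6.71 in control at 12 h, and 7.40 with Di and 7.32 in control at 48 h. Of the 510 genes that fell, the 12 h control was the highest group in 307, as in 25.0% of all genes.

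After TXNIP, the largest falls were RIPOR3 (-1.80 ± 0.26, adjusted p = 0.000147), at 6.24, 5.55 and 6.24 with Di, against 7.75, 8.01 and 7.68 in control, and RAB26, a GTPase of secretory granules, whose Di arrays (2.26, 2.27 and 2.35) were at background, against 3.26 to 4.73 in control. CCDC80, a secreted matrix protein, fell by 1.48 ± 0.27 (adjusted p = 0.00113) and the B cell adaptor BLNK fell by 1.46 ± 0.40 (adjusted p = 0.0295). POLR2A, the largest subunit of RNA polymerase II, had 5.31, 5.42 and 5.35 with Di, against 6.61, 6.29 and 6.69 in control (-1.16 ± 0.20, adjusted p = 0.000708). The histone gene H2AC6 fell by 1.15 ± 0.30 (adjusted p = 0.02). For 6 of the 15 largest falls the Di mean was under 4, so their differences are not sizes of change. Only 1 of the 15, TXNIP, had several probe sets, and each of the others rests on 1.

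Genes that fell were longer than those that rose. The median genomic span of a gene, from the RefSeq table, was 63.6 kb for the 510 that fell and 17.2 kb for the 185 that rose, against 30.8 kb over all genes tested. Genes over 100 kb made up 35.1% of those that fell, 8.65% of those that rose and 18.5% of all. In the shortest of 10 length classes of equal size 2.98% were higher and 1.53% lower, and in the longest 0.541% were higher and 8.84% lower (0.812% and 4.96% after median centring). The median difference was 0.03 in the shortest class and -0.20 in the longest. Di replicate 2 had the largest drop with length, yet without it the medians were 63.6 kb for the genes that fell and 19.4 kb for those that rose. With the beta-actin difference as a covariate they were 31.7 kb and 35.8 kb, the one alternative in which the order turned, and that difference is itself confounded with the 2 groups.

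For the 2 other exposures examined, the genes that were higher had the longer median. Genes lower with Di at 48 h had a median span of 30.9 kb and higher ones 39.3 kb, and with CdCl at 12 h these were 30.9 kb and 42.1 kb. Whether the patterns differ was not tested. In a list of chromatin and transcription regulators with long transcripts, 25 of 27 differences were below 0 with a median of -0.28. Over all genes 6850 of 11092 were below 0, with a median of -0.07. The 2 that fell (7.41%, against 4.60% over all genes) were the remodeller ATRX (-0.54 ± 0.15, adjusted p = 0.0263) and the zinc finger gene ZNF292 (-0.56 ± 0.17, adjusted p = 0.0465). Both calls were lost after median centring, without Di replicate 2 or control replicate 2, and when just the 2 groups were fitted.

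**Figure D4:**
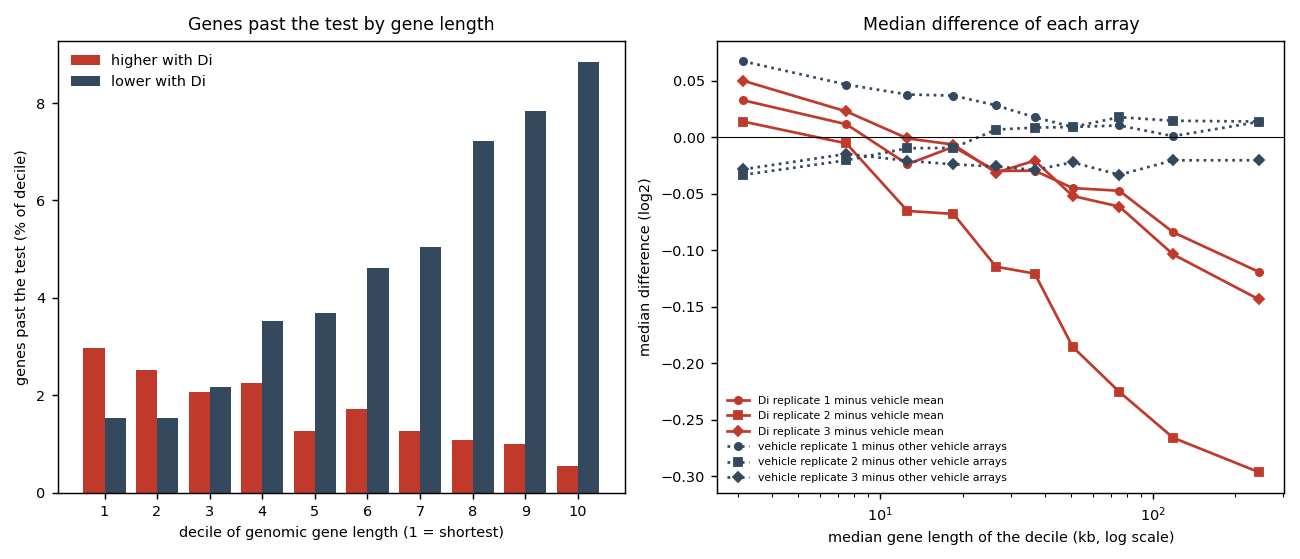
Left, the share of genes past the test (%, vertical axis) in 10 classes of genomic length, from shortest (1) to longest (10), with red bars for genes higher and dark bars for genes lower with Di. Right, the median difference (log2) of each Di array from the control mean (red) and of each control array from the other control arrays (dark, dotted) against the median length of the class (kb, log scale). All 3 Di arrays fall with length, and replicate 2 falls furthest.

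Di was then set against CdCl at the same 12 h, with the test made directly between their arrays. Of 11092 genes, 3954 differed (35.6%), 2449 higher and 1505 lower with Di than with CdCl (1792 and 1828 of 3620 after median centring). NRF2 targets were lower with Di than with CdCl in 25 of 35 and higher in 1, KEAP1, which was singled out after its values were seen. HMOX1 was 0.84 ± 0.19 above control with Di and 6.27 ± 0.19 above the same controls with CdCl, a difference between the compounds of -5.43 ± 0.19 (adjusted p = 8.83e-19). Heat shock genes were lower with Di in 18 of 19, with DNAJB1 at -2.78 ± 0.22 (adjusted p = 5.38e-11), as were 8 of 11 metallothionein and zinc response genes, with MT1X at -1.82 ± 0.14 (adjusted p = 8.85e-11). Endoplasmic reticulum chaperones and targets were lower with Di in 16 of 21. In the other direction 37 of 45 mitotic genes and 34 of 40 replication genes were higher with Di than with CdCl. HMMR was at -0.62 ± 0.12 with Di and -1.32 ± 0.12 with CdCl relative to the shared controls (0.70 ± 0.12 between the compounds, adjusted p = 2.48e-05).

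Of the 185 genes that rose, 83 were also higher with Di than with CdCl by the direct test, and of the 510 that fell, 101 were also lower. The CdCl difference had the same sign as that of Di and was smaller in 34 of the 83 and 49 of the 101. It had the opposite sign in 49 of the 83 and 52 of the 101, and in 8 and 14 of these CdCl lay further from control than Di. HAVCR1 was 1.07 ± 0.16 above control with Di and 0.60 ± 0.16 with CdCl, 0.48 ± 0.16 higher with Di (adjusted p = 0.0236). BAX was 0.69 ± 0.25 higher with Di than with CdCl (adjusted p = 0.0298). ARRDC4 was 0.83 ± 0.18 lower with Di than with CdCl (-0.83 as the difference, adjusted p = 0.000577), both near background. TXNIP was at -2.20 ± 0.43 with Di and -1.34 ± 0.43 with CdCl, and the difference of -0.86 ± 0.43 did not pass (adjusted p = 0.121). TNC (-0.39 ± 0.12, adjusted p = 0.014) and IFIT3 (0.53 ± 0.13, adjusted p = 0.00169) also differed between the compounds. SPINK13, a protease inhibitor by family, was 1.25 ± 0.21 higher with Di (adjusted p = 4.00e-05) and was not past the test with CdCl. It averaged 4.85 with Di, and 3.60 with CdCl and 3.66 in control, both under the background level, so the difference is not a size of change.

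The Di effect at 12 h was finally set against that at 48 h, each relative to its own controls. Of 11092 genes, 3212 had effects that differed between the times (29.0%). Of the 185 genes higher at 12 h, 74 were also higher at 48 h (40.0% of the 185 and 3.49% of the 2122 higher at 48 h) and 26 were lower. Of the 510 lower at 12 h, 199 were lower at 48 h (39.0%, and 7.51% of 2651) and 65 were higher. NRF2 targets differed in 29 of 35, in each case with the 12 h effect below the 48 h effect. HMOX1 was at 0.84 ± 0.19 at 12 h and 5.54 ± 0.19 at 48 h, and GCLC at -0.11 ± 0.24 at 12 h and 3.53 ± 0.24 at 48 h. CBR1 did not differ detectably between the times, at 0.52 ± 0.13 and 0.55 ± 0.13 (difference -0.03, adjusted p = 0.922), nor did PMAIP1, at 0.96 ± 0.20 and 1.40 ± 0.20 (adjusted p = 0.267).

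Other genes had the higher effect at 12 h. HAVCR1, higher at 12 h by 1.07 ± 0.16, was lower at 48 h (-1.505 ± 0.16), and the effects differed (adjusted p = 1.72e-09). FOLR1 was at 1.55 ± 0.19 at 12 h and -0.77 ± 0.19 at 48 h (adjusted p = 1.95e-07 for the change). BAX, at 1.28 ± 0.25 at 12 h, was at 0.08 ± 0.25 at 48 h (adjusted p = 0.00984). Mitotic genes differed in 35 of 45, in each case with the 48 h effect lower, and HMMR was at -0.62 ± 0.12 at 12 h and -1.77 ± 0.12 at 48 h. Of 13 proximal tubule markers, 10 were significantly lower at 48 h than at 12 h relative to control and PAX8, singled out after its values were seen, was higher. Of 11 metallothionein and zinc response genes 7 had a lower effect at 48 h, with MT1X at 0.07 ± 0.14 at 12 h and -1.34 ± 0.14 at 48 h. TXNIP could not be compared in size, since at 48 h it averaged 2.26 with Di and 3.62 in control, both under the background level.

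**Figure D5:**
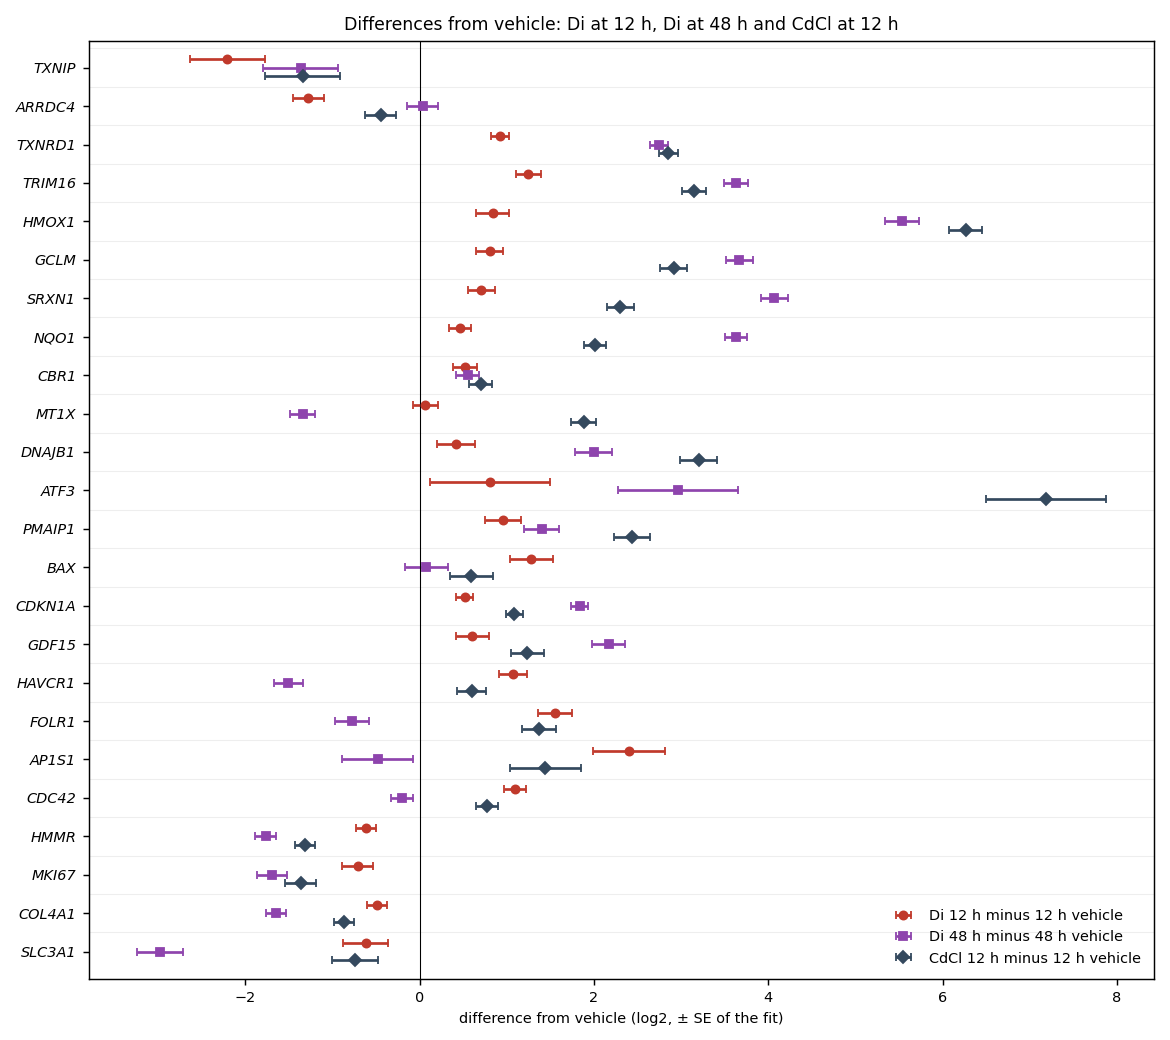
Differences from vehicle (log2, horizontal axis, ± SE of the fit) of 24 genes for Di at 12 h (red circles), Di at 48 h (purple squares) and CdCl at 12 h (dark diamonds), where the first and last share their controls. NRF2 targets such as HMOX1, SRXN1 and GCLM lie under 1 with Di at 12 h and above 2 in the other comparisons, while HAVCR1 is at 1.07 with Di at 12 h, -1.505 with Di at 48 h and 0.60 with CdCl at 12 h.

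The count of genes past the test depended on which arrays were used. It was 613, 353 and 452 without Di replicate 1, 2 and 3, and 477, 309 and 286 without control replicate 1, 2 and 3. A core of 176 genes, 45 higher and 131 lower, passed in all 6 of these fits, and 77, 18 higher and 59 lower, passed in every one of 18 alternatives. Among the 77 were TXNIP, TXNRD1, GCLM, TRIM16, CDKN1A, BAX, PMAIP1, HAVCR1, AP1S1, FOLR1, CDC42, EIF5A, HMMR, TNC, LRIG1 and POLR2A. SRXN1 was lost with the beta-actin covariate, ASPM with the mean of probe sets, and ARRDC4 with a filter at 6 that left it untested.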

How the data were processed

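Total RNA had been labelled with biotin and hybridised to single-colour Affymetrix arrays. Each probe set has a deposited value on the log2 scale, which the authors computed with GCRMA, a method of background correction and normalization that the submitters' processing notes name. No version is given in the sources used here. The values ran from 0.714 to 16.1, with array medians of 2.91 to 3.02, and no array copied another. GCRMA compresses differences of dim genes and partly removes a change shared by most genes. No count of molecules lies behind a value, so precision rests on how many arrays a group has.

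Of 54675 probe sets, 62 controls were left out, and 23599 were above 4 on at least 3 of the 36 arrays. In the platform annotation 41091 probe sets have 1 gene, 1801 have several and 11721 have none, and the 3155 kept ones without 1 gene were not used. Each gene took its probe set of highest mean, which left 11092 genes. Where the lower group averaged under 4, a fold is a bound against that floor.

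One model with a mean for each of 12 groups was fitted to the 36 arrays by limma 3.58.1 (R 4.3.3, lmFit and eBayes, 24 residual degrees of freedom). P-values were adjusted by Benjamini-Hochberg across all genes at a threshold of 0.05, and SEs carry the spread of all groups. The fit was run on simulated data with independent noise on every array. Those data hold neither the beta-actin difference nor deviations shared between arrays, so the run says nothing of either. Named are 21 index genes, the 15 largest called rises and as many falls without overlap, passing members of each list, the 2 members of each list with the largest differences, and for other comparisons the 5 largest each way. Not all are printed. The genes, gene lists and tests were chosen with earlier results of these data known. Alternatives changed the filter, variance trend, scaling, probe sets, samples in the fit, array weights, replicate block and a beta-actin covariate, or left out an array.

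Promoters are RefSeq's, GRCh38.p14, searched on both strands. Gene lengths came from the RefSeq table.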

Additional observations from a re-analysis of the deposited data

Results flagged for a closer look

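The Di effect, relative to the controls of its own time, differed between 12 h and 48 h in 3212 genes by the test of the difference itself. The values that follow are the 12 h effect minus the 48 h effect on the log2 scale, so a negative value means a lower effect at 12 h.

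Antioxidant and stress genes had the lower effect at 12 h. The difference was -5.67 for NMRAL2P, a pseudogene, and -4.79 for the aldo-keto reductase AKR1C1. It was -4.70 for HMOX1, -3.64 for GCLC, -3.36 for SRXN1, -3.17 for NQO1, -2.86 for GCLM and -1.82 for TXNRD1. Neither NMRAL2P (-0.02) nor AKR1C1 (-0.06) passed at 12 h. NMRAL2P was under the background level of 4 in both 12 h groups and the 48 h control, so its value is not a size of change. The co-chaperone DNAJB1 was at -1.58, the stress cytokine GDF15 at -1.56, the kidney injury marker LCN2 at -2.02, and the p53 targets CDKN1A and MDM2 at -1.32 and -0.82. MAP2, a microtubule protein of neurons, was at -5.46, SNAI2, a repressor of epithelial genes, at -4.94, and DKK1, a secreted WNT inhibitor, at -4.82. SNAI2 and DKK1 were, like NMRAL2P, above background only with Di at 48 h among these 4 groups, and LCN2 was at background in both 12 h groups, so their values are not sizes either. ARRDC4 was at -1.31, with levels near background at both times.

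Other genes had the higher effect at 12 h. The tight junction pore CLDN2 was at 5.74 and the transporter SLC17A3 at 4.25, both genes of the proximal tubule and both at -0.02 or -0.03 at 12 h. TMT1A, a thiol methyltransferase, was at 4.72, the mitotic kinesin KIF20A at 4.23 and the death ligand TNFSF10 at 4.13. The effects of these 3 genes were -0.67, -0.27 and -0.02 at 12 h, against -5.38, -4.49 and -4.14 at 48 h. CLDN2 and KIF20A were under the background level with Di at 48 h. HAVCR1 was at 2.58, MT1X at 1.41, BAX at 1.21 and HMMR at 1.15.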

How the results depend on the processing

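The 12 h Di result, 695 genes, was within 1.5 times that number after median centring (546), quantile normalization (598), averaging of probe sets (648), a variance trend (725), no filter (612), filtering at 6 (702) and the beta-actin covariate (949, of which 358 were shared with the 695). Fitting just the 2 groups left 298, and fitting the CdCl and Di arrays alone gave 1446. The number was 2394 with array weights, and 1529 probe sets when every kept probe set was tested. Leaving out 1 array gave 286 to 613. Genes that differed between Di and CdCl numbered 6237 probe sets with every kept probe set and 3135 to 3569 without 1 array. Those whose Di effect changed over time numbered 5466 probe sets, 4860 with array weights, and 2784 to 3019 without 1 array. A replicate block gave 1662 genes at 12 h, 695 of them shared. Same-numbered arrays of the CdCl and Di set correlated at r = -0.35 to 0.42 in their deviations, over 0.1 in 8 of 45 pairs, and in 1 of 3 pairs of Di and control at 12 h. Differently numbered ones passed 0.1 in 22 of 90, so the shared numbers did not pair these arrays. In the arrays that the labels call Kbr, which share the fit, all 45 same-numbered pairs passed 0.1 (r = 0.22 to 0.70) and 0 of 90 others did. The main fit does not model that pairing. The replicate block does, in both sets of arrays, and with it 1662 genes passed at 12 h, against 695 in the main fit. Without the Kbr arrays 1446 passed. No fit changed the pairing of the Kbr arrays alone, so its own part in the counts was not tested. Median gene length of lower minus higher called genes (kb) reversed with the beta-actin covariate, at -4.07. Over the 154 named genes and all alternatives, 2279 values kept their direction and side of the threshold, 293 no longer passed, 119 newly passed and 68 changed sign with neither value past it. The cause was not tested, except that fewer arrays or more probe sets enter some fits by construction. Dim genes, with a group under 4, limit what can be said of size.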
